A study of Mus musculus with 9 samples.

Results

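The Trim genes encode the tripartite motif proteins, and 58 of the 19938 genes measured on these arrays carry such a symbol. They were taken as every probe set that names a single gene whose symbol is Trim followed by a number, with or without a letter, and each of the 58 was read by 1 probe set. Another 6 probe sets name a Trim gene together with a further gene and were left out, so Trim5, Trim17, Trim30b, Trim43a, Trim43b, Trim43c, Trim60 and Trim61 have no value of their own.

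A typical tripartite motif protein joins a RING finger, which attaches ubiquitin to other proteins, to B-box zinc fingers and a coiled coil through which the proteins pair. The end of the chain differs between members and decides what is bound: a SPRY domain in many antiviral members, NHL repeats, or a PHD finger and bromodomain that read histones. In myeloid cells the family is known for members that interferon induces and that tune the sensing of viral nucleic acid, and for others that restrain NF-kB signalling.

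The arrays held RNA of dendritic cells that had been derived from mouse bone marrow, in 3 groups of 3 arrays that the submitters describe as independent cultures. The groups were untransduced wild-type cells without stimulus, untransduced wild-type cells given 100 ng/ml LPS for 4 h (lipopolysaccharide of bacteria, sensed through Toll-like receptor 4), and cells transduced with an shRNA against JmjD2d in the retroviral vector pSir-delta U6CHisD and given the same LPS. All cells had passed through SCF, IL-3 and IL-6 as progenitors and through 8 days of differentiation with GM-CSF. JmjD2d, encoded by Kdm4d, is a demethylase of histone H3. The wild-type cells carried no hairpin, and no array of a control hairpin or of unstimulated knockdown cells was analysed here, so the hairpin cannot be told apart from infection and selection.

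The values are log2 expression made by the authors with RMA, which corrects background, normalizes the arrays to each other and summarises each probe set. Between replicates, r across genes was 0.985 to 0.997, a description since genes are not independent replicates. Kdm4d itself read 7.69 ± 0.13 in wild-type and 7.31 ± 0.18 in knockdown cells after LPS (SD, n = 3 each), a log2 difference of -0.37 with an adjusted p of 0.278 in limma. Arrays with the same number moved together, and arrays numbered 2 stood apart for interferon-stimulated genes: the list's median gene was 1.36 higher on array 2 than on the mean of arrays 1 and 3 in unstimulated wild-type cells, 1.11 higher after LPS and 0.71 higher in knockdown cells. Values without those arrays are given beside the Trim genes that follow that pattern. After LPS, dendritic cell markers had a list mean of 10.04 to 10.75 over 10 genes in wild-type cells, and of 8.79 to 9.78 in knockdown cells. In wild-type cells they ran from 6.76 for Flt3 to 13.76 for Cd74, with Zbtb46 at 7.83. The median gene over the 9 arrays lay at 7.61. Macrophage markers had a list mean of 11.2 to 11.6 over 6 genes in wild-type cells after LPS.

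Sequences near the start sites of 8 members are shown first because 7 of these 8 read high together on wild-type LPS array 2, with Trim2 the exception. The core of the interferon-stimulated response element, a short motif found near many interferon-induced genes, was searched as 2 copies of GAAA with any 2 bases between them, on both strands with overlapping matches allowed, in the RefSeq windows of 250 bases before to 50 after each annotated start (GRCm38.p6). It was found in 8 of the 46 members with a window (17.4%), against 3.99% of 27025 genes. The stretches of 30 bases below run 5′ to 3′ on the strand of the gene, with the matched letters in capitals. TTTC in capitals is GAAA read from the other strand.
Trim21 (chr7:102565447-102565476, minus strand): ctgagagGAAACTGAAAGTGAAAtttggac
Trim34a (chr7:104244457-104244486, plus strand): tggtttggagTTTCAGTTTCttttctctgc
Trim12a (chr7:104315466-104315495, minus strand): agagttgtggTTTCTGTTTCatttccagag
Trim12c (chr7:104353359-104353388, minus strand): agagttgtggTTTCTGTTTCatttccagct
Trim30a (chr7:104465210-104465239, minus strand): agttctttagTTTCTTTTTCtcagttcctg
Trim30d (chr7:104507871-104507900, minus strand): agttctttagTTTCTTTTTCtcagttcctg
Trim26 (chr17:36836979-36837008, plus strand): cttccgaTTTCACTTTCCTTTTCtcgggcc
Trim2 (chr3:84212791-84212820, minus strand): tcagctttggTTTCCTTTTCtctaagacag

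In Trim21 and Trim26 the capitals hold 2 overlapping matches. The first matched base lay 36 bases before the start in Trim30a, 41 before in Trim30d, 29 before in Trim12c and 160 before in Trim26. It lay 11 bases into the transcript in Trim34a and Trim12a, 14 in Trim21 and 29 in Trim2. The stretches of Trim30a and Trim30d were identical in 30 of 30 bases, and a second annotated start of Trim30a held the same match, in a stretch identical to that of Trim30d in 26 of 30 bases. The Trim12, Trim30 and Trim34a genes lie close together on chromosome 7 and are relatives of each other, so their matches are not taken as separate observations. The GAS element, TTCNNNGAA, which reads the same on both strands, was found in 5 of 46 members (10.9%, against 9.55% of all genes), none of them a member that changed. An NF-kB-type site, GGG and TTTCC with any 2 bases between them on either strand, was found in 0 of 46, against 1.89% of all genes. A match is a description of letters and not a site shown to be bound.

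The first comparison asks how the family answered LPS in wild-type cells. Trim21, Trim30d, Trim13 and Trim56 rose, and Trim37, Trim16, Trim7, Trim65, Trim24 and Trim39 fell (limma, adjusted p under 0.05 over 19938 genes). The rises are 6.9% of the 58 members, against 3.99% of all genes, and the falls are 10.3%, against 6.86%. At an unadjusted p under 0.05 there were 18 members (31%), against 26.3% of all genes. Members moved in both directions: the median difference of the family was 0.06, beside 0.04 for all genes, and 35 of 58 members (60.3%) lay above 0, against 59.7% of all genes. The groups did not overlap for 10 members that were higher and 11 that were lower, 17.2% and 19% of the family, where 12.8% and 16.5% of all genes were so placed.

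**Figure D1:**
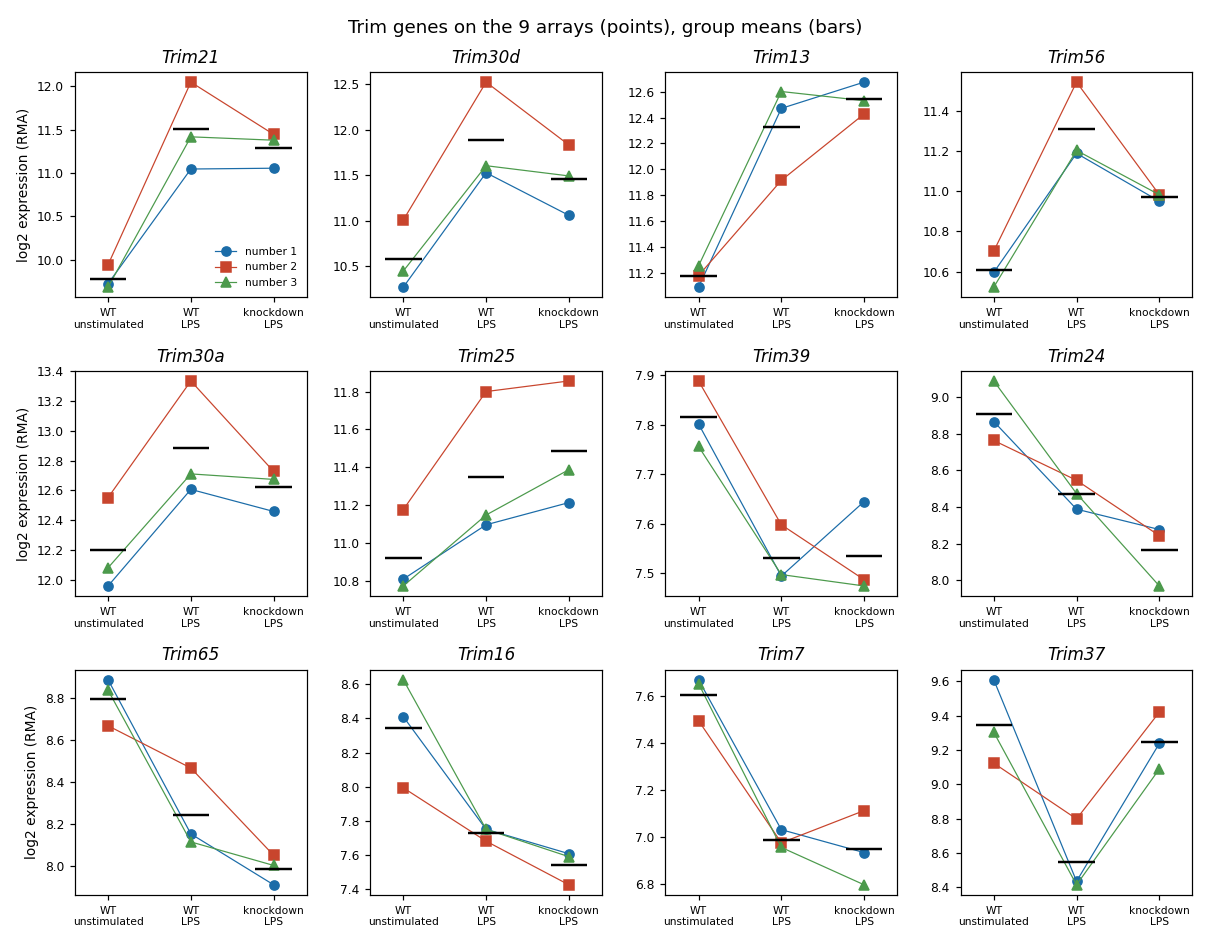
Log2 expression (RMA) of 12 Trim genes on each of the 9 arrays, in wild-type cells without stimulus, wild-type cells after LPS and knockdown cells after LPS. Points joined by a line carry the same replicate number and black bars are group means (n = 3). Trim21 lies between 9.69 and 9.94 without stimulus and between 11.05 and 12.05 after LPS, while the 3 LPS values of Trim37 in wild-type cells lie below those of both other groups.

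Among regulators of innate sensing, 3 of 13 rose and 1 fell. Trim21, a ligase that also binds antibody in the cytosol and marks antibody-coated virus for destruction, had the largest rise of the family. It read 9.73, 9.94 and 9.69 on unstimulated arrays 1 to 3 and 11.05, 12.05 and 11.42 after LPS. The groups lay far apart, with array 2 the highest in both. The rise was 3.29-fold (a log2 difference of 1.72 with SE 0.23 between 3 and 3 arrays, adjusted p = 0.0038). It was present within each number, at 1.32, 2.10 and 1.73, and was 1.53 without the arrays numbered 2 (adjusted p = 0.00181).

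Trim13, a ligase anchored in the endoplasmic reticulum that takes part in the disposal of misfolded proteins, read 11.09, 11.18 and 11.26 without stimulus. After LPS it read 12.47, 11.92 and 12.60. Here array 2 was the lowest of the LPS group, opposite to Trim21, and every LPS value was above every unstimulated one. The rise was 2.22-fold (1.15, SE 0.16, adjusted p = 0.00467).

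Trim56, a ligase tied to the cytosolic DNA response, read 10.60, 10.70 and 10.52 before and 11.19, 11.54 and 11.20 after LPS. The groups were separate by more than their spread. The rise was 1.63-fold (0.70, SE 0.10, adjusted p = 0.00465). Its window held no match to the response element. The calls of Trim21, Trim13 and Trim56 were kept in all 16 alternatives.

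Trim65, a ligase of the RNA sensor MDA5, went the other way. It read 8.88, 8.67 and 8.83 without stimulus and 8.15, 8.47 and 8.12 after LPS, with array 2 the lowest before and the highest after. The fall was 1.46-fold (-0.55, SE 0.10, adjusted p = 0.0144), and it lost its call without unstimulated array 1 or 3 or LPS array 1 or 3 (adjusted p from 0.0582 to 0.0629). Ifih1, which encodes MDA5, rose by 2.28 (SE 0.19, adjusted p = 0.000606) in the same cells.

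Trim25, the ligase that activates the RNA sensor RIG-I, read 10.81, 11.18 and 10.77 before and 11.10, 11.80 and 11.15 after LPS. Unstimulated array 2 lay above LPS arrays 1 and 3, so the groups overlapped. Its difference of 0.43 did not pass the test (adjusted p = 0.273), and within the numbers it was 0.29, 0.62 and 0.38. It was called in 2 of 16 alternatives: with the replicate number as a block (adjusted p = 0.0187) and without the arrays numbered 2 (0.33, adjusted p = 0.0328). Without LPS array 2 alone it was 0.20 (adjusted p = 0.48). Trim26, a ligase of innate signalling, read 8.75, 8.80 and 8.71 before and 8.98, 9.70 and 9.07 after LPS, without overlap. The difference was 0.50 (adjusted p = 0.108, paired 0.0555), and it was called after quantile normalization and, at 0.29, without the arrays numbered 2 (adjusted p = 0.048). Trim14, a member without a RING finger that acts in RIG-I signalling, read 10.22, 11.66 and 10.17 after LPS against 10.43, 10.61 and 10.43 before, so that only array 2 was higher. Its difference of 0.19 turned to -0.24 without the arrays numbered 2 (adjusted p = 0.0719). The other 6 regulators were not called, and their differences ran from -0.38 for Trim23 to 0.16 for Trim38. Trim23 and Trim68 were called lower without LPS array 2 and without all arrays numbered 2.

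The Trim5, Trim6, Trim12, Trim30 and Trim34 genes, relatives of a retroviral restriction factor, had 6 measured members, and all 6 differences were above 0 with a median of 0.51. Trim30d, a close copy of Trim30a, read 10.27, 11.01 and 10.45 without stimulus and 11.53, 12.53 and 11.61 after LPS. The groups did not overlap, and array 2 was the highest of each. The rise was 2.48-fold (1.31, SE 0.32, adjusted p = 0.034), with 1.26, 1.52 and 1.16 within the numbers and 1.21 without the arrays numbered 2. The call was lost when unstimulated array 1 or 3, LPS array 1 or 3, or knockdown array 3 was left out (adjusted p from 0.0564 to 0.12).

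Trim30a, which in mice lowers NF-kB activation by removing the adaptors TAB2 and TAB3, read 11.96, 12.55 and 12.08 before and 12.61, 13.33 and 12.71 after LPS. All LPS values were above all unstimulated ones. The difference of 0.69 (SE 0.21, adjusted p = 0.0807) was called in the paired fit (adjusted p = 0.011), where the numbers gave 0.65, 0.78 and 0.63. It was also called without the arrays numbered 2 (0.64, adjusted p = 0.00697), without unstimulated array 2 alone (0.86, adjusted p = 0.0418) and among the brighter genes only (adjusted p = 0.0498). With the paired fit these are 4 of 16 alternatives. Without LPS array 2 alone it was 0.46 and not called (adjusted p = 0.109). Trim34a read 8.13, 8.49 and 8.04 before and 8.48, 9.42 and 8.46 after LPS, and its groups overlapped through unstimulated array 2. Within the numbers it rose by 0.34, 0.94 and 0.43. Its difference of 0.57 (adjusted p = 0.205) was called in 2 of 16 alternatives. These were the paired fit (adjusted p = 0.0412) and, at 0.39, the fit without the arrays numbered 2 (adjusted p = 0.0202). Without LPS array 2 alone it was 0.25 (adjusted p = 0.284).

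The 3 other members of that group were not called. Trim12a differed by 0.45 and Trim12c by 0.04, but LPS array 2 carried both: the differences within numbers 1 to 3 were 0.02, 1.09 and 0.26 for Trim12a and -0.69, 0.68 and 0.15 for Trim12c. Without the arrays numbered 2 they were 0.14 and -0.27. Trim6 differed by 0.28. These genes are relatives of each other, and probe sets of such genes can share signal, which was not tested here. The split between members is therefore uncertain.

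The 8 members with a response-element match are set beside the 38 with a window and no match as a description, with no test. Their sequences were shown because of the values on LPS array 2, so those values are no separate support. The Trim12, Trim30 and Trim34a genes among them are relatives of each other and are not taken as separate points. The median LPS difference was 0.53 with a match and 0.05 without, and all 8 with a match were above 0. Without the arrays numbered 2 the medians were 0.34 and 0.11, and 7 of the 8 were above 0, with Trim12c at -0.27. On LPS array 2 the members with a match lay 0.88 above the mean of arrays 1 and 3 in the median, with 7 of 8 above it, and Trim2 at -0.11. Those without a match lay at -0.09 in the median, with 16 of 38 above 0, beside -0.04 over all genes. Trim25, a member without a match, lay at 0.68. Trim14, which has no window and is in neither set, lay at 1.47. In unstimulated cells the medians were 0.22 and 0.01, and in knockdown cells 0.28 and 0.01. In unstimulated cells all 8 matched genes read higher on array 2 than on the mean of the others, by 0.07 to 0.65. So did 22 of the 38 unmatched members and 11074 of all 19938 genes. All 17 interferon-stimulated genes did as well, by 1.36 in the median. The part of this difference in the LPS results was not tested beyond the values without those arrays. Neutrophil markers moved with array 2 in the other direction, with medians of -0.77, -1.67 and -1.77 over 7 genes in the 3 groups and 2, 2 and 0 of them above 0. Dendritic cell markers had medians of -0.61, -0.35 and -0.35 over 10 genes. Plasmacytoid dendritic cell markers were split, with medians of 0.06, 0.75 and 0.28 over 4 genes and 4, 3 and 2 of them above 0. On LPS array 2 Tcf4 lay at 1.69 and Bst2 at 1.41, but Ccr9 at 0.09 and Siglech at -0.0051. The part of these markers was not tested.

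**Figure D2:**
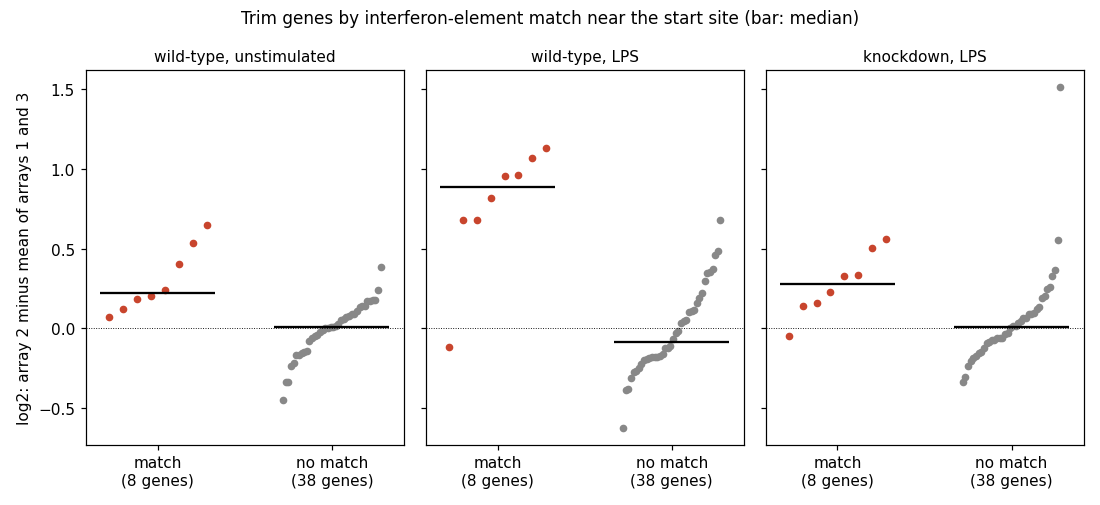
Log2 value of array 2 minus the mean of arrays 1 and 3 in each group, for the 8 Trim genes with a response-element match near the start site and the 38 with a window and no match. Each point is a gene and the bar is the median. After LPS in wild-type cells 7 of the 8 matched genes lie above 0, with a median of 0.88, and the unmatched genes centre on -0.09.

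The TIF1 members bind chromatin, and Trim28 brings the H3K9 methyltransferase Setdb1 to repressed loci. Of 4 measured, 1 fell. Trim24, a reader of histone H3 and cofactor of nuclear receptors, read 8.87, 8.76 and 9.09 without stimulus and 8.39, 8.55 and 8.47 after LPS. The groups were apart, but narrowly. The fall was 1.35-fold (-0.44, SE 0.11, adjusted p = 0.0404). This call did not hold in the paired fit (adjusted p = 0.061), after quantile normalization (-0.28, adjusted p = 0.157), after median centring (adjusted p = 0.0599) or under another variance prior (adjusted p = 0.0533), and it was lost without unstimulated array 1 or 3, LPS array 1 or 3 or knockdown array 1 (adjusted p from 0.055 to 0.133).

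Trim28 itself read 10.13, 10.10 and 9.92 before and 9.74, 10.20 and 9.69 after LPS. The groups overlapped only through LPS array 2. The difference was -0.18 (95% interval -0.49 to 0.14, adjusted p = 0.441), and without that array it was -0.34 (adjusted p = 0.048). Without all arrays numbered 2 it was -0.31 and not called (adjusted p = 0.0548). Trim33, a regulator of TGF-beta signalling, differed by -0.12 (interval -0.29 to 0.06), and Trim66 by 0.20. Among 9 partners of TIF1 proteins in heterochromatin, 2 fell, Setdb1 by 0.75 (adjusted p = 0.00485) and the heterochromatin protein Cbx3 by 1.02 (adjusted p = 0.0315), and Hdac1 rose by 0.34 (adjusted p = 0.0498). Cbx5 differed by -0.71 (adjusted p = 0.053, paired 0.0262).

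The largest fall of the family was that of Trim37, a ligase that limits the assembly of centrosomes. It read 9.61, 9.12 and 9.30 without stimulus and 8.43, 8.80 and 8.41 after LPS. Array 2 was the lowest before and the highest after, so its difference of -0.33 was the smallest of the numbers, beside -1.17 and -0.89. The fall was 1.74-fold (-0.80, SE 0.15, adjusted p = 0.0153), and it lost its call without unstimulated array 1 or 3 or LPS array 1 or 3 (adjusted p from 0.0504 to 0.0686).

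Trim7, which binds the glycogen primer glycogenin, read 7.67, 7.50 and 7.65 before and 7.03, 6.98 and 6.96 after LPS. The arrays of each group lay close together. The fall was 1.54-fold (-0.62, SE 0.09, adjusted p = 0.00479) and was called in all 15 alternatives that tested it. Its mean lies below that of the median gene, as for 28 members, and no detection calls were used here. Trim16, a member without a RING finger that acts in the removal of damaged lysosomes, read 8.41, 7.99 and 8.63 before and 7.75, 7.68 and 7.75 after LPS. Its fall of 0.62 on the log2 scale (SE 0.14, adjusted p = 0.0303) was lost when LPS array 1, 2 or 3, unstimulated array 1 or 3, or knockdown array 1 or 3 was left out (adjusted p from 0.0506 to 0.105). Trim39 fell by 0.29 (SE 0.07, adjusted p = 0.0361), the smallest change that passed. It was lost in 9 of 16 alternatives, with adjusted p from 0.0538 to 0.127: after quantile normalization, median centring or another variance prior, and without any 1 of the unstimulated arrays, LPS array 1 or 3 or knockdown array 3. In each of the 4 fits without unstimulated array 1 or 3 or LPS array 1 or 3, Trim7 was the 1 member called lower, in place of 6.

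Of the NHL-repeat members, 0 of 4 were called, with 1 at an unadjusted p under 0.05. This was Trim32, a ligase mutated in a muscular dystrophy, at -0.46 (SE 0.14, adjusted p = 0.0762), which was called without the arrays numbered 2 (-0.63, adjusted p = 0.0131) and without unstimulated array 2 alone (-0.57, adjusted p = 0.0444). Trim2, Trim3 and Trim71 differed by -0.09 to 0.16.

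The microtubule-associated and muscle members also had 0 of 8 called, with 1 at an unadjusted p under 0.05. Trim36, a microtubule-binding member, stood apart by its spread. It read 8.78, 7.33 and 8.39 before and 9.67, 7.88 and 9.70 after LPS, so that arrays numbered 2 were the lowest of both groups by more than 1 log2 unit. It rose within each number, by 0.89, 0.55 and 1.31, and the difference of 0.92 (SE 0.52, adjusted p = 0.301) was called without the arrays numbered 2 (1.10, adjusted p = 0.0051) and without LPS array 2 alone (1.52, adjusted p = 0.0328). Trim55, a muscle RING-finger protein that binds titin, read 6.12, 6.07 and 6.23 before and 6.38, 6.24 and 6.59 after LPS, below the 7.61 of the median gene. Its difference of 0.26 (adjusted p = 0.143) passed in the paired fit (adjusted p = 0.0428) and without LPS array 2 (0.34, adjusted p = 0.0498). The other 6 differed by -0.02 to 0.13, with values between 6.52 and 7.74 throughout.

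Trim29 and Trim44, which lack a RING finger like Trim16, differed by 0.17 and -0.15. Trim29 was called without the arrays numbered 2 (0.37, adjusted p = 0.0152), 1 of 15 alternatives. The 20 members in none of these groups had 3 falls and no rise, those of Trim37, Trim7 and Trim39, and their other differences lay between -0.25 for Trim41 and 0.20 for Trim58. Of these Trim41 was called lower without the arrays numbered 2, and Trim75 higher without LPS array 2. Trim75 averaged 5.73 without stimulus and 5.92 in wild-type cells after LPS, below the 7.61 of the median gene. In the paired fit 8 members rose and 5 fell, 13.8% and 8.62% of the family, where 5.19% and 9.57% of all genes did. The rises were those of Trim21, Trim13, Trim56, Trim30d, Trim30a, Trim34a, Trim25 and Trim55, and the falls those of Trim37, Trim16, Trim7, Trim65 and Trim39. Without the arrays numbered 2 there were 10 rises and 10 falls (17.2% each), where 8.81% and 15.8% of all genes were called. Without LPS array 2 alone there were 7 and 8 (12.1% and 13.8%), against 6.25% and 10.9%.

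The genes of the same pathways were read on the same arrays. Of 19 genes of cytosolic RNA and DNA sensing, 4 rose and 0 fell by limma: Ifih1, the kinases Ikbke (1.68, adjusted p = 0.00187) and Tbk1 (0.72, adjusted p = 0.00281), and the adaptor Tank (0.96, adjusted p = 0.00055). The paired fit called 9 higher and 1, Sting1, lower (-0.61, adjusted p = 0.0219). Of 17 interferon-stimulated genes 11 rose, and all 17 in the paired fit, with a median difference of 2.19 against 0.06 over the Trim genes. Parp14 rose by 1.88 (adjusted p = 0.00037), the antiviral GTPase Mx1 by 2.93 (adjusted p = 0.00624) and the nucleotide kinase Cmpk2 by 3.81 (adjusted p = 0.00619).

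The family members under other names had 1 of 4 changed. Mefv, which encodes pyrin of the inflammasome, rose 5.26-fold (adjusted p = 0.000507), more than any gene with a Trim symbol. Pml, the scaffold of nuclear bodies, differed by 0.23 (SE 0.59), which turned to -0.32 without the arrays numbered 2. Mid1 differed by 0.35 (adjusted p = 0.0789, paired 0.0492) and Mid2 by 0.08. Of 14 ubiquitin-activating and ubiquitin-conjugating enzymes, which hand ubiquitin to RING ligases or carry ISG15, 2 rose: Ube2l6, the ISG15-conjugating enzyme, by 1.69 (adjusted p = 0.0121) and Ube2e3 by 0.49 (adjusted p = 0.0108).

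The second comparison asks which Trim genes differed, after LPS, in cells with the JmjD2d hairpin. It shares the wild-type LPS arrays with the first, so the values are given side by side and not related to each other. None of the 58 passed the test in either direction, by limma without or with the replicate number as a block. Over all genes 0.401% were higher and 0.361% lower, and 1.51% and 1.24% in the paired fit. At an unadjusted p under 0.05 there were 6 members (10.3%), against 13.1% of all genes: Trim37 and Trim32 higher, and Trim56, Trim24, Trim65 and Trim38 lower. The median difference was -0.07, beside -0.03 over all genes, and 41 of 58 members (70.7%) lay below 0, against 59.3% of all genes. The 95% interval lay within a 2-fold difference either way for 52 of the 58 members (89.7%), and for 93.6% of all genes.

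**Figure D3:**
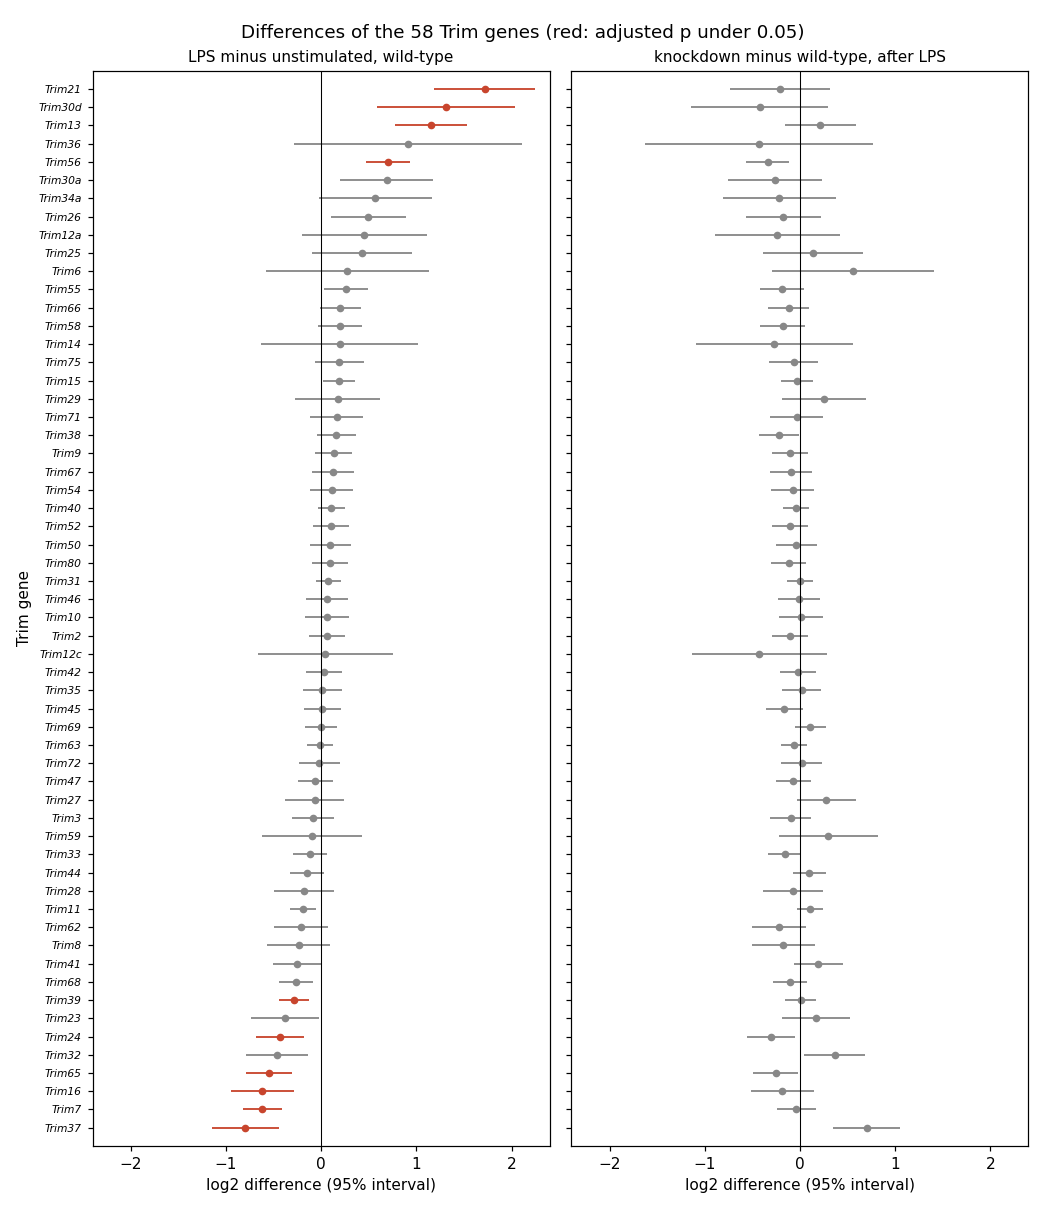
Log2 differences of all 58 Trim genes with 95% intervals, for LPS in wild-type cells (left) and for knockdown against wild-type cells after LPS (right), both sorted by the LPS difference. Red marks an adjusted p under 0.05: 4 rises and 6 falls on the left and no gene on the right, where Trim37 has the largest difference, 0.70.

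Trim37 had the largest knockdown difference of the family. Knockdown arrays 1 to 3 read 9.24, 9.42 and 9.09, all above the 8.43, 8.80 and 8.41 of wild-type cells after LPS. Their mean was 9.25 ± 0.17 (SD, n = 3), beside 8.55 ± 0.22 in wild-type cells. The difference was 1.62-fold (0.70, SE 0.15, 95% interval 0.35 to 1.05), with an adjusted p of 0.0872. It was 0.80, 0.62 and 0.68 within the numbers. It was called after quantile normalization (0.67, adjusted p = 0.0428), without wild-type LPS array 2 (0.82, adjusted p = 0.0462) and without all arrays numbered 2 (0.74, adjusted p = 0.0363), where 2.14% of all genes were called higher and 1.21% lower.

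Trim32 read 7.36, 7.69 and 7.35 in knockdown and 7.04, 7.21 and 7.06 in wild-type cells after LPS. The groups did not overlap. The difference was 0.36 (SE 0.14, adjusted p = 0.318).

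Trim56 read 10.95, 10.98 and 10.98 in knockdown cells, below the 11.19, 11.54 and 11.20 of wild-type cells. The knockdown arrays were closer to each other than those of either wild-type group. The difference was -0.34 (SE 0.10, interval -0.57 to -0.11), with an adjusted p of 0.178, and -0.23 without the arrays numbered 2 (adjusted p = 0.129).

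Trim24 read 8.28, 8.24 and 7.97 in knockdown cells, below the 8.39, 8.55 and 8.47 of wild-type cells. The difference from wild-type cells after LPS was -0.31 (interval -0.56 to -0.05, adjusted p = 0.282). Trim28 differed by -0.07 (interval -0.39 to 0.24, adjusted p = 0.859) and Trim33 by -0.16 (interval -0.34 to 0.02, adjusted p = 0.431). For Trim28 the groups overlapped, at 9.71, 9.93 and 9.77 against 9.74, 10.20 and 9.69. Their 9 partners had 0 calls, with 1 at an unadjusted p under 0.05, and ran from -0.16 for Cbx1 to 0.65 for Cbx3, while Setdb1 differed by 0.12 (adjusted p = 0.691).

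Trim65 read 7.91, 8.05 and 8.00 in knockdown cells, under the 8.15, 8.47 and 8.12 of wild-type cells (-0.26, adjusted p = 0.346). Trim16 read 7.61, 7.43 and 7.59, also under all 3 wild-type values (-0.19, adjusted p = 0.629). Trim38, a brake on Toll-like receptor signalling, read 5.92, 5.78 and 5.94 against 6.30, 6.02 and 5.98 and differed by -0.22 (interval -0.43 to -0.01, adjusted p = 0.346). These values are low, where the median gene lay at 7.61 and the lowest member mean at 5.83. In all, 5 members were higher and 6 lower without overlap, 8.62% and 10.3%, where 8.21% and 8.38% of all genes were so placed. Besides those named, these were Trim11, Trim29 and Trim59 higher, by 0.10 to 0.30, and Trim2 lower, by 0.10.

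None of Trim21, Trim13, Trim30d, Trim30a, Trim34a and Trim25 was called in the knockdown, and each interval held 0. Trim21 read 11.05, 11.44 and 11.38, overlapping wild-type cells, and differed by -0.21 (interval -0.74 to 0.32, adjusted p = 0.744). This rested on array 2: the differences within the numbers were 0.01, -0.60 and -0.04, and without wild-type LPS array 2 the value was 0.06. Trim13 read 12.67, 12.43 and 12.53 and differed by 0.21 (interval -0.16 to 0.59), and by 0.0081 without wild-type LPS array 2. Trim30d read 11.06, 11.83 and 11.49 and differed by -0.42 (interval -1.15 to 0.30), and by -0.47, -0.69 and -0.11 within the numbers. It was -0.10 without wild-type LPS array 2 and -0.29 without all arrays numbered 2. Trim30a differed by -0.26 (interval -0.76 to 0.23) and Trim34a by -0.22, again mainly on number 2, at -0.61 and -0.63, and without wild-type LPS array 2 they were at -0.04 and 0.10. Trim25 differed by 0.14 (interval -0.39 to 0.66), and without knockdown array 2 by -0.05.

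All 8 members with a response-element match differed by less than 0, with a median of -0.23, beside -0.04 for the 38 without. This rested on wild-type LPS array 2: without it 4 of the 8 were below 0 and the medians were 0.0051 and -0.07. Without all arrays numbered 2, 6 of the 8 were below 0 and the medians were -0.05 and -0.07. The 17 interferon-stimulated genes had 0 calls, 1 member at an unadjusted p under 0.05 and a median of -0.09. Among the Trim5 group 5 of 6 were below 0 and 0 were called. Trim6 was the exception, at 7.13, 8.57 and 6.99 in knockdown and 6.85, 7.24 and 6.93 in wild-type cells, where knockdown array 2 alone stood far above the rest (difference 0.55, SE 0.37, adjusted p = 0.577).

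Trim36 again followed the numbers. Knockdown arrays read 8.88, 8.49 and 8.59, and the differences from the wild-type array of the same number were -0.79, 0.61 and -1.11. The pooled difference of -0.43 (SE 0.52, 95% interval -1.62 to 0.77, adjusted p = 0.769) therefore averaged opposite signs. Without the arrays numbered 2 it was -0.95 and was called (adjusted p = 0.039). Trim27, a ligase that restrains innate signalling, had a similar difference in each pair, with 0.27, 0.31 and 0.25 within the numbers and a mean of 0.28 (SE 0.13, adjusted p = 0.438, paired 0.102).

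The remaining members stayed within a narrow range. NHL-repeat members other than Trim32 lay between -0.10 and -0.04, and the microtubule and muscle members other than Trim36 between -0.19 and 0.02. The 20 members in no group ran from -0.22 for Trim62 to Trim37 at 0.70. Of the 19 sensing genes 0 were called by limma, 3 had an unadjusted p under 0.05, and the paired fit called Sting1 lower (-0.66, adjusted p = 0.127, and 0.0463 paired). Mefv differed by -0.64 (adjusted p = 0.18), and was called without the arrays numbered 2 (-0.74, adjusted p = 0.0352). Mid1 differed by 0.33 (adjusted p = 0.236). Of 14 ubiquitin enzymes 0 were called by limma, with 0 at an unadjusted p under 0.05, and Ube2l6 had the lowest value, -0.60 (adjusted p = 0.465).

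Markers of cell types were read beside this comparison, and their part in it was not tested. Of 10 dendritic cell markers 0 were called by limma without the block, 7 were lower at an unadjusted p under 0.05, and 6 were called lower in the paired fit, among them Ccr7 (-2.81, adjusted p = 0.0111), Irf4 (-2.34, adjusted p = 0.00601), Irf8 (-0.91, adjusted p = 0.0201) and Batf3 (-0.61, adjusted p = 0.0435). The list means of mast cell and basophil markers were 7.46 to 7.97 in wild-type and 6.42 to 6.92 in knockdown cells after LPS, with 3 of 7 lower in the paired fit. Neutrophil markers had list means of 8.43 to 10.4 against 7.47 to 9.73, with 1 of 7 lower in the paired fit, Mpo (-1.74, adjusted p = 0.032). Macrophage markers (11.2 to 11.6 against 11.2 to 11.5), plasmacytoid markers (7.80 to 8.61 against 7.68 to 8.07) and lymphocyte markers (5.82 to 6.15 against 5.83 to 5.91) had 0 called in either limma fit, with 2, 1 and 2 genes at an unadjusted p under 0.05. The 2 macrophage markers went opposite ways, Mertk at 0.71 (adjusted p = 0.287 in limma) and Csf1r at -0.65 (adjusted p = 0.0783). In such bulk samples, fewer cells of a type and less RNA per cell cannot be told apart.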

How the data were processed

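Expression was measured on 9 Affymetrix mouse gene arrays. The deposited values are log2 expression made by the authors with RMA, a step named without a version in the submitters' processing notes. Genome build and array annotation release are not given in the sources used here. No further normalization was applied.

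Of 35556 probe sets, 21789 named 1 gene, 1621 several and 12146 none. Symbols were updated by Entrez identifier through RefSeq (GRCm38.p6, also the source of the promoter windows), which matched 21698, and each gene took its probe set with the highest mean. A mean per group was fitted with limma 3.58.1 in R 4.3.3, with p-values adjusted by Benjamini-Hochberg over 19938 genes, two-sided. Fitted differences carry standard errors and 95% intervals. The script was tested on simulated data with independent noise on each array. That test had no effect of the replicate number, so it does not cover the shared movement of arrays described below.

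Deviations from the group means correlated by 0.14 to 0.48 in the 9 pairs of arrays with the same replicate number in the labels. In the other pairs they correlated by -0.41 to 0.25. The main fit, which gave the calls and intervals unless said otherwise, has no term for the number, so a second fit is given beside it. The fit with the number as a block is the paired fit. P-values set each difference against the spread between these cultures, which the main fit treats as independent.

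Members and lists were chosen with earlier results of these data known. Named were members called in either fit, the 10 with the smallest p per comparison, the TIF1 members, Trim21, Trim25 and Trim56, the extremes of each group, and up to 4 genes of each other list. Trim6, Trim14, Trim26, Trim12a and others given by value were named after their values were seen.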

Additional observations from a re-analysis of the deposited data

How the results depend on the processing

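The counts of Trim genes were recomputed under 16 alternatives. Higher members after LPS numbered 4, and 8 with the replicate block, 10 without the arrays numbered 2 and 3 to 7 when single arrays were left out. They numbered 5 after quantile normalization and among the brighter genes only. Lower members numbered 6, and 10 without the arrays numbered 2 and 1 to 8 when single arrays were left out. They numbered 4 after quantile normalization, median centring or another variance prior, and 5 with the block or among the brighter genes only. Counts over all genes moved too: the 796 higher became 1757 without the arrays numbered 2 and 393 to 1246 over single arrays, and the 1368 lower became 3152 and 475 to 2178. In the knockdown the 0 higher became 1, Trim37, after quantile normalization and without the arrays numbered 2, and 0 to 1 over single arrays. The 0 lower became 1, Trim36, without the arrays numbered 2, and was 0 to 0 over single arrays. The cause was not tested. The block changed the calls given above and no other call of a Trim gene. Members not called after LPS in the main fit but called in an alternative were called in 1 to 4 of 15 or 16 alternatives.

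Directions turned for differences that were not called. Among the 30 members named by rule, quantile normalization turned the LPS values of Trim2 (-0.0185), Trim27 (0.0765) and Trim45 (-0.0438) and the knockdown value of Trim7 (0.0076). Leaving out the arrays numbered 2 turned the LPS values of Trim12c (-0.27), Trim27 (0.0059) and Trim72 (0.12) and the knockdown values of Trim28 (0.0261) and Trim72 (-0.0469) among the 30 members named by rule. Over all 58 members it turned 5 LPS and 8 knockdown values, those of Trim14 (LPS -0.24), Trim12a (knockdown 0.0277) and Trim26 (knockdown 0.0029) included. Without wild-type LPS array 2 alone, 5 LPS and 10 knockdown values turned over all 58 members. Ranges over single arrays were computed only for the 30 members named by rule. Among these the LPS ranges that crossed 0 were -0.31 to 0.36 for Trim12c, -0.15 to 0.0611 for Trim27, -0.0234 to 0.0699 for Trim45 and -0.10 to 0.0655 for Trim72. The knockdown ranges that crossed 0 among the same members were -0.44 to 0.0613 for Trim21, -0.0476 to 0.36 for Trim25, -0.17 to 0.0895 for Trim28, -0.38 to 0.10 for Trim34a, -0.0492 to 0.0397 for Trim39, -0.12 to 0.0356 for Trim7, -0.14 to 0.10 for Trim71 and -0.0666 to 0.10 for Trim72. With 3 arrays per group their number limits the precision.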

Other observations

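The 6 probe sets that name a Trim gene with another gene were fitted among all 35556 deposited probe sets, and none was called. The probe set of Trim30b and Gm38525 read 8.15, 10.58 and 8.18 in wild-type cells after LPS, 7.67, 8.36 and 7.59 without stimulus and 7.88, 9.02 and 8.25 in knockdown cells, so that array 2 was the highest of each group (LPS difference 1.10, SE 0.64, adjusted p = 0.37). The probe set shared by Trim5, Trim12a and Trim12c read 9.60, 10.86 and 9.89 after LPS against 9.89, 10.01 and 9.83 before. The probe set shared by Trim5 and Trim12c read 9.13, 10.48 and 9.44 against 9.59, 9.67 and 9.38.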
